A study of Mus musculus with 52 samples.

Results

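In a mouse study of genotoxic and non-genotoxic liver carcinogens, ethanol stood for the non-genotoxic compounds that are not liver carcinogens in mice. Livers were followed up to 28 days after a single dose. The arrays described here are the 3 ethanol arrays of 4 h, 14 days and 28 days, of 52 arrays in the series. They are the ethanol arrays by label without that of 20 h, which was left out for its 3′ to 5′ signal ratios. Each stands against the saline array of the same time, and against the mean of the controls run beside N-ethyl-N-nitrosourea (ENU), dimethylnitrosamine (DMN) and dipropylnitrosamine (DPN) at that time, which together makes 15 arrays.

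Male B6C3F1 mice, 9 weeks old, received ethanol at 1000 mg/kg by a single intraperitoneal administration. The saline mice and the controls of the ENU, DMN and DPN sets had saline as their treatment label. The saline array also served as the control of phenobarbital (PB), a barbiturate that induces drug-metabolising enzymes. Liver RNA of 5 mice was pooled for each array and each group had 1 array, so no group has a replicate, the spread between mice is not measured, and treatment and array cannot be told apart. Neither the hour of dissection nor the feeding state is known from the labels or the study's text. The labels describe the ethanol arrays of 4 h and 14 days, and the saline arrays of those times, as non-genotoxic hepatocarcinogen. The study's text calls ethanol neither genotoxic nor a liver carcinogen in mice.

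Ethanol is oxidised in hepatocytes, mainly by alcohol dehydrogenase and, at higher levels, by CYP2E1. The acetaldehyde formed is oxidised to acetate by mitochondrial aldehyde dehydrogenase, and both dehydrogenase steps turn NAD into NADH. Binge doses of ethanol are known to raise circulating glucocorticoids and to change hepatic lipid handling, while at 14 and 28 days after a single dose no ethanol is left in the body. Genes are given below by the log2 of the array signal after each array was scaled to the same median, with signals below 32.5 units set to that floor (5.02 on the log2 scale), and a difference of 1.00 is 2-fold.

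The ethanol array of 20 h was set aside. Its log2 ratio of 3′ over 5′ signal was 3.13 for the Gapdh control probe sets and 3.79 for the actin control probe sets, against −0.51 to 0.34 and 0.15 to 1.28 on the other 51 arrays. Array medians over the 15 arrays ran from 40.5 to 205 units before scaling. Summed hepatocyte marker signal (13 of 16 markers measured, none at the floor) was 100941, 90357 and 103583 units on the ethanol arrays of 4 h, 14 days and 28 days, against 92558, 102272 and 93100 units on the saline arrays. The other controls ran from 109954 to 124314 units at 4 h, 97751 to 106408 at 14 days and 122134 to 129223 at 28 days. Ethanol was below all of the other controls at each time, and saline was below them at 4 h and 28 days.

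Ethanol and saline arrays of the same time were close to each other. Of 18349 probe sets, 303 (1.65%) were at least 2-fold apart at 4 h, 347 (1.89%) at 14 days and 552 (3.01%) at 28 days. The 6 pairs of controls at 4 h, all without ethanol, were 516 to 720 probe sets apart, and every control pair at 14 days differed by at least 552. At 28 days the control pairs ran from 421 to 628. Ethanol at 4 h and 14 days was thus nearer to its saline array than any pair of controls was to each other, and at 28 days it lay within the range of the pairs. Each control pair joins different sets, while ethanol, PB and saline are of the same set. Any difference between sets thus enters the pairs but not ethanol against saline, so the pairs do not measure the spread within a set. Against the mean of the ENU, DMN and DPN controls, ethanol was at least 2-fold apart for 462, 462 and 312 probe sets at 4 h, 14 days and 28 days, and saline for 299, 532 and 312. PB, which shares the saline array, was 275, 303 and 503 probe sets from it.

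**Figure D1:**
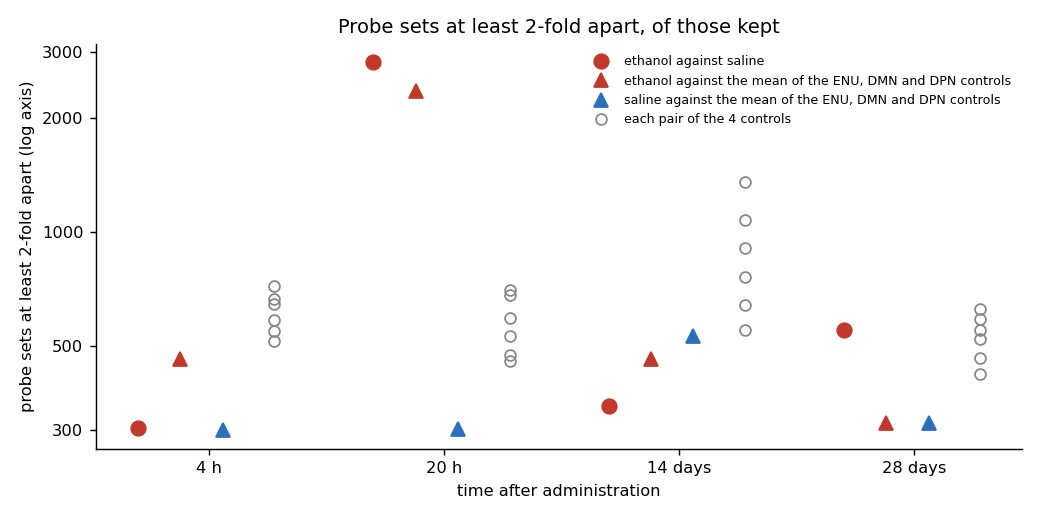
Number of the 18349 kept probe sets that were at least 2-fold apart (log axis) between arrays of one time, by time after administration. The ethanol against saline points, within a set, lie below all control pairs, which join different sets, at 4 h (303) and 14 days (347). They lie inside the pairs at 28 days (552), while the ethanol array of 20 h, set aside, stands at 2812.

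A gene was taken as higher or lower in ethanol where it was at least 2-fold from saline and from the mean of the other 3 controls in the same direction, and outside the range of all 4 controls. Of 10755 genes, each by its brightest probe set, 20 were higher (0.186%) and 31 lower (0.288%) at 4 h, 20 higher (0.186%) and 24 lower (0.223%) at 14 days, and 37 higher (0.344%) and 32 lower (0.298%) at 28 days. This is a rule of size with no test. Many of these genes were dim: 14 of the 20 higher genes at 4 h, 13 of 20 at 14 days and 19 of 37 at 28 days had at least 1 of the 5 arrays at the floor, and on the lower side the ethanol array itself was at the floor for 14 of 31, 12 of 24 and 16 of 32. Without scaling of the arrays the 28 day probe sets split into 532 higher and 15 lower, against 69 higher and 53 lower with it. In limma, with the spread taken from the ENU, DMN and DPN controls (6 residual degrees of freedom), 48 probe sets differed between ethanol and saline at 4 h (31 higher, 0.169%; 17 lower, 0.0926%), 76 at 14 days (24 higher, 0.131%; 52 lower, 0.283%) and 70 at 28 days (38 higher, 0.207%; 32 lower, 0.174%), each at an adjusted p under 0.05. Of these, 47, 74 and 65 had a floor value on at least 1 array. Against the mean of the ENU, DMN and DPN controls, limma called 62 probe sets higher (0.338%) and 14 lower (0.0763%) in ethanol at 4 h, 61 higher (0.332%) and 12 lower (0.0654%) at 14 days, and 52 higher (0.283%) and 7 lower (0.0381%) at 28 days. Against saline, over the 12679 probe sets above the floor on all 15 arrays, limma called 0 at 4 h, 0 at 14 days and 3 at 28 days (238, 377 and 743 at an unadjusted p under 0.05).

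At 2 or more times, 2 genes were higher past this limit (0.0186%), Ddit4 and Tmem39a, and 3 were lower (0.0279%), Id2, Hoxc9 and 1110008P14Rik. Id2, which encodes an inhibitor of DNA binding that blocks basic helix-loop-helix transcription factors, was the only gene past 2-fold on both comparisons at all 3 times (1 of 10755 genes, 0.0093%). Its log2 signal was 8.29 in ethanol against 9.39 in saline and 9.96, 10.08 and 10.51 in the ENU, DMN and DPN controls at 4 h. At 14 days it was 8.49 in ethanol, 9.88 in saline and 9.66, 10.03 and 9.99 in those controls. At 28 days it was 8.16 in ethanol, 9.31 in saline and 9.90, 9.97 and 10.12 in those controls. The 3 ethanol arrays lay between 8.16 and 8.49, and the 12 control arrays of these times between 9.31 and 10.51. Id2 was picked for lying below the controls of each time, so this separation is no further support. Over all genes, 88 (0.818%) lay below all 4 controls at each time. Averaged over the 3 times, Id2 fell by 1.21 on the log2 scale (SE 0.16) in ethanol relative to saline, with a limma adjusted p of 0.028. With the ethanol and saline arrays alone, paired by time, the limma adjusted p was 0.88 (unadjusted p 0.00057), and that fit called 0 of 18349 probe sets, with 871 at an unadjusted p under 0.05. Relative to all 4 controls the mean difference was −1.59 (SE 0.21, limma adjusted p = 0.008). The PB arrays were at 8.34, 9.01 and 9.69 at these times. On the array set aside, Id2 was at 8.93 in ethanol and 8.03 in saline at 20 h, with 9.50 to 10.21 in the other controls, so the saline array was the lower one at that time. A second Id2 probe set had log2 ratios to saline of −0.41, −1.44 and −1.16 at the 3 times, and the remaining, dim one had 0.05, 0.27 and −0.25.

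Lpin1 encodes lipin 1, a phosphatidate phosphatase of triglyceride synthesis that also acts as a coactivator of fatty acid oxidation genes and is induced by fasting and glucocorticoids. Its log2 signal in ethanol was 11.24 at 4 h, 10.66 at 14 days and 10.53 at 28 days. Saline stood at 10.96, 8.12 and 7.24 at those times. The ENU, DMN and DPN controls had 9.09, 8.56 and 9.36 at 4 h, 8.70, 8.56 and 9.51 at 14 days, and 9.85, 9.66 and 9.68 at 28 days. Ethanol was thus the highest of the 5 arrays at every time, close to saline at 4 h, and the saline array of 28 days was the lowest of all. The mean difference from saline was 2.03 (SE 0.28, limma adjusted p = 0.035, and 0.88 with the pairs alone), and that from all 4 controls was 1.70 (SE 0.58, limma adjusted p = 0.52). Both Lpin1 probe sets were alike, with ratios to saline of 2.53 and 2.43 at 14 days and of 3.28 and 3.51 at 28 days, where limma gave adjusted p = 0.051 for the brighter and 0.016 for the other.

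Lpin1 belongs to a list of 20 genes that fasting and glucocorticoids induce in liver, of which 19 were measured. In ethanol, 14, 13 and 14 of the 19 were above saline at 4 h, 14 days and 28 days, and 14, 17 and 15 were above the mean of the other controls. Over all genes, 52.4%, 42.3% and 56.9% were above saline and 43%, 50.3% and 44.8% above the other controls, and 18.7%, 17.5% and 20.9% were above all 4 controls, as were 10, 11 and 10 of the list. The median log2 ratio to saline was 0.20, 0.26 and 0.64, and to the other controls 0.61, 0.67 and 0.31, while the medians over all genes lay between −0.02 and 0.07. Without scaling of the arrays the 4 h median to saline was −0.13 for the list and −0.29 for all genes. Past 2-fold on both comparisons were none at 4 h, Lpin1, Cebpd and Ddit4 at 14 days, and Ddit4, Tsc22d3 and Igfbp1 at 28 days. Saline itself differed from the other controls by a median of 0.43 for this list at 4 h, 0.15 at 14 days and by −0.15 at 28 days. The mean level of the list was 9.33, 8.98 and 9.15 in ethanol, above each of the 4 controls of the same time, which ran from 8.53 to 9.14, from 8.24 to 8.53 and from 8.43 to 8.85. PB stood at 9.29, 8.81 and 8.89, also above each of the 4 controls of its time, so this trait was not particular to ethanol. By its brightest probe set no member had a limma adjusted p under 0.05 against saline at any time.

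Of the 19 members, 6 were higher in ethanol than in every control at all 3 times, namely Lpin1, Ddit4, Tsc22d3, Fkbp5, Sgk1 and Tat, while 151 of 10755 genes were (1.4%). Ddit4 (REDD1, an inhibitor of mTORC1) was at 8.43, 7.09 and 8.23 in ethanol and at 7.58, 5.82 and 6.61 in saline at 4 h, 14 days and 28 days. The other controls ran from 6.20 to 7.16, 5.75 to 6.52 and 5.72 to 6.89 for Ddit4, all below ethanol. Tsc22d3 (GILZ, a leucine zipper protein that glucocorticoids induce) was at 10.58, 10.06 and 10.95 in ethanol and at 9.81, 9.09 and 9.48 in saline. Fkbp5 (a co-chaperone of the glucocorticoid receptor) was at 10.32, 8.98 and 8.74 in ethanol and at 9.92, 8.08 and 7.64 in saline. For Fkbp5 the distance to saline was 0.40 at 4 h, 0.90 at 14 days and 1.10 at 28 days, with standard errors of 0.33. Sgk1, a kinase induced by glucocorticoids and serum, and Tat, tyrosine aminotransferase, had smaller ratios to saline, of 0.06, 0.35 and 0.29 for Sgk1 and 0.35, 0.21 and 0.46 for Tat. Among the other members, Tdo2 (tryptophan oxygenase) and Pck1 (PEPCK, the gluconeogenic enzyme) had ratios to saline between −0.18 and 0.64, Gadd45g had −0.60, −0.43 and −1.48, and Pdk4, which restrains pyruvate oxidation, was at the floor in ethanol at each time and on all but 2 of the 15 arrays.

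Osgin1, a growth inhibitor that responds to oxidative stress and NRF2, was among the 88 genes (0.818%) that lay below all 4 controls at each time. It was at 7.63, 7.37 and 8.32 in ethanol, against 8.30, 8.76 and 8.99 in saline and 8.98 to 9.60, 8.19 to 8.83 and 8.82 to 9.44 in the other controls. Its log2 ratio to saline was −0.68, −1.39 and −0.67, with a standard error of 0.42 (limma adjusted p = 1, 0.65 and 0.83). St3gal5, the synthase of the ganglioside GM3, was above all 4 controls at each time, with ratios to saline of 0.47, 0.65 and 1.10 (mean of 3 times, limma adjusted p = 0.042, and 0.88 with the pairs alone). Over the probe sets above the floor that adjusted p was 0.31 for St3gal5, while Id2 had 0.025 and Lpin1 0.011.

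**Figure D2:**
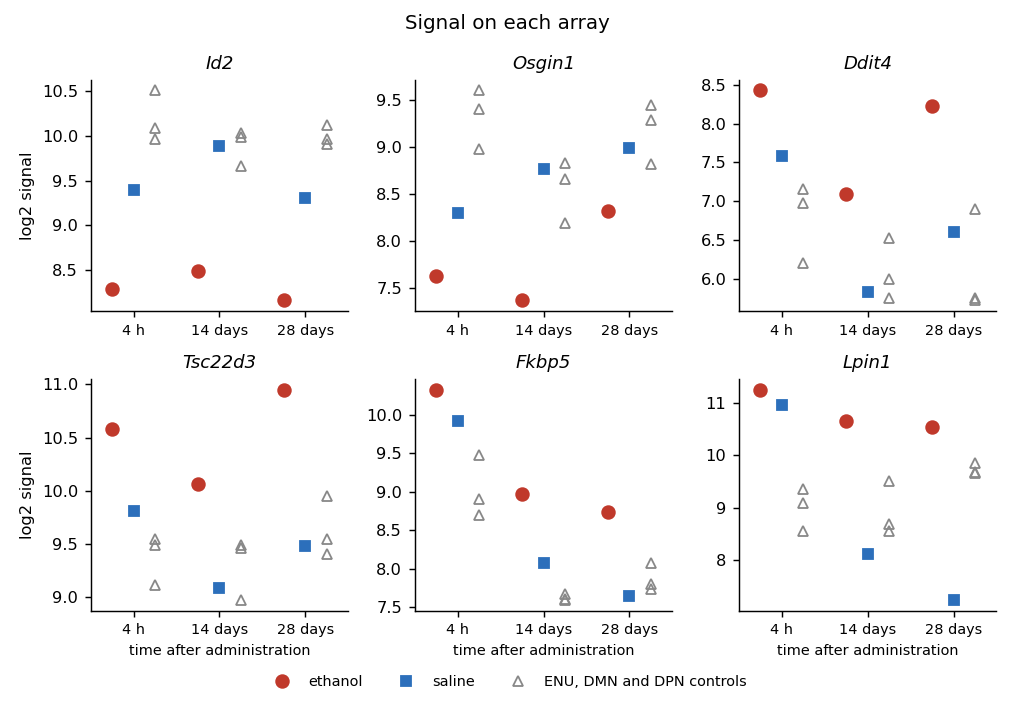
Log2 signal of 6 genes on the ethanol array, the saline array and the ENU, DMN and DPN control arrays at 4 h, 14 days and 28 days; each point is 1 array of RNA pooled from 5 mice. Ethanol is the lowest point at each time for Id2 (8.16 to 8.49) and Osgin1, and the highest for Ddit4, Tsc22d3, Fkbp5 and Lpin1.

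None of the genes that oxidise ethanol and acetaldehyde passed 2-fold on both comparisons at any of the 3 times, where 0.186% to 0.344% of all genes were higher and 0.223% to 0.298% lower. Of 15 listed genes 14 were measured, and 6, 2 and 11 of them were above saline at 4 h, 14 days and 28 days, with medians of −0.02, −0.14 and 0.17. Adh1, the main liver alcohol dehydrogenase, was at 12.66, 12.55 and 12.86 in ethanol against 12.68, 12.72 and 12.69 in saline. Cyp2e1, the ethanol-inducible microsomal oxidase, was at 12.90, 12.78 and 12.94 in ethanol against 12.92, 13.06 and 12.92 in saline, and at 12.97 to 13.36 in the other controls. Aldh2, which clears acetaldehyde in mitochondria, had ratios to saline of 0.08, −0.20 and 0.13. For Adh4, ethanol was lowest at 4 h (9.29, against 9.68 in saline and 10.33 to 10.52 in the other controls), with log2 ratios of −0.39 to saline and −1.10 to the other controls. The standard errors of these ratios were 0.23 for Adh1, 0.16 for Cyp2e1, 0.21 for Aldh2 and 0.26 for Adh4, so smaller shifts could not be seen with 1 array per group.

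Nr1d1 encodes REV-ERB alpha, a repressor of the circadian clock. At 4 h it was at the floor (5.02) in ethanol, at 6.63 in saline and at 8.36, 8.15 and 7.84 in the ENU, DMN and DPN controls, with PB at 5.54. Ethanol was the lowest of the arrays, at least 3.05-fold below saline, and saline lay between ethanol and the other controls. The limma adjusted p for Nr1d1 was 0.27 against saline and 0.003 against the other controls. At 14 days Nr1d1 was again lower in ethanol (8.14) than in saline (9.02), within the range of the other controls, and at 28 days it was at 8.74 in ethanol and 6.92 in saline. The 21 measured clock and clock output genes had a median ratio at 28 days of 0.53 to saline but −0.08 to the other controls. Saline itself had a median of −0.29 against those controls. Per1 and Per2, period genes that glucocorticoids induce directly, were at 8.27 and 7.73 in ethanol at 4 h, against 7.78 and 7.22 in saline, and at most 7.48 and 6.39 in the other controls.

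Junb, an AP-1 subunit of the immediate early response, was at 5.23 in ethanol at 4 h, 6.23 in saline and 7.58 to 8.28 in the other controls (limma adjusted p = 1 against saline and 0.014 against the others). Bok, a pro-apoptotic BCL2 family member, was at 5.03 in ethanol, 6.76 in saline and 7.18 to 8.19 in the other controls. Ltc4s, leukotriene C4 synthase, was at the floor in ethanol, with 6.71 in saline and 7.14 to 7.44 in the other controls, which is at least 3.22-fold below saline. In all of these, ethanol stood below every control and saline stood second, between ethanol and the other controls. Cxcl9, a chemokine induced by interferon gamma, was also at the floor in ethanol, at 6.50 in saline and at 7.02 to 8.53 in the other controls.

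Cxcl9 was 1 of 37 measured acute phase and chemokine genes, of which 20 were above saline and 16 below it at 4 h. Against the mean of the other controls only 2 were above and 34 were below, with a median of −0.38. Over all genes at 4 h, 39.3% were below saline and 52.5% below the mean of the other controls. Saline had a median of −0.42 against the same controls, so that ethanol and saline stood alike for this list. Saa2, a serum amyloid A acute phase protein, was at 9.44 in ethanol, 11.12 in saline and 8.91, 12.46 and 12.72 in the ENU, DMN and DPN controls, which overlap ethanol. Summed signal of 13 measured Kupffer cell and macrophage markers at 4 h was 3309 units in ethanol, 3265 in saline and 4314 to 5046 in the other controls, and its part in these differences was not tested. In RNA of whole liver, fewer cells of a type and less RNA per cell cannot be told apart.

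On the higher side at 4 h, Rusc1, an adaptor protein gene, was at 8.61 in ethanol and 6.48 in saline. The ENU, DMN and DPN controls had 7.69, 6.08 and 5.83 for Rusc1, and PB 8.53. Exosc1, a subunit of the RNA exosome, was at 6.76 in ethanol and at the floor in saline, which is at least 3.32-fold higher in ethanol. Psg28, of the pregnancy-specific glycoproteins, was at 7.09 in ethanol, 5.91 in saline and 5.20 to 5.44 in the other controls (limma adjusted p = 0.28 and 0.012). Ctrb1, a pancreatic protease, was at the floor in ethanol and at 7.14 to 7.44 in the 4 controls. The summed signal of 7 measured pancreatic acinar markers, of which Ctrb1 is 1, was 1457 units in ethanol, 1569 in saline and 1790 to 1934 in the other controls, and its part was not tested.

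Of 19 measured heat shock and chaperone genes, 17 were above saline at 4 h and 17 above the other controls, with medians of 0.28 and 0.18, and 9 exceeded all 4 controls. Over all genes 52.4% were above saline, 43% above the other controls and 18.7% above all 4. None of the 19 passed 2-fold on both comparisons, where 0.186% of all genes were higher and 0.288% lower. The mean level of this list was 9.05 in ethanol, 8.86 in PB and 8.59 to 8.77 in the 4 controls. PB was thus also above each control, and the trait was not particular to ethanol. Hspa1b, the inducible HSP70, was at 9.60 in ethanol, 8.97 in saline and 7.40 to 8.05 in the other controls. Of 28 measured ER stress and amino acid response genes 19 were above saline and 17 above the other controls, with medians of 0.31 and 0.10, and the median of saline against those controls was −0.21. Creld2, an endoplasmic reticulum chaperone, was at 9.20 in ethanol, 7.93 in saline and 7.50 to 8.81 in the other controls (SE of the ratio 0.91).

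Some genes separated ethanol and saline together from the other controls. Got1, the cytosolic aspartate aminotransferase of the malate-aspartate shuttle, was at 12.13 in ethanol and 12.05 in saline at 4 h, and at 10.35 to 10.87 in the other controls. Its limma adjusted p was 1 against saline and 0.046 against the others. Cyp4a14, a fatty acid hydroxylase and target of PPAR alpha, was at 8.50, 7.90 and 8.81 in ethanol at 4 h, 14 days and 28 days and at 8.34, 7.74 and 6.98 in saline, while the other controls of all 3 times lay between the floor and 5.90. Cyp4a14 in ethanol passed 2-fold on both comparisons only at 28 days, when saline was lower than at the earlier times. Cyp2b10, the cytochrome P450 that phenobarbital induces through CAR, was at 8.88, 7.03 and 8.51 in ethanol, 8.28, 7.13 and 7.41 in saline and 5.85 to 7.26 in the other controls. The PB arrays had 11.98 for Cyp2b10 at 4 h and 7.49 at 28 days. Its ratio to saline at 28 days was 1.09 (SE 0.43, limma adjusted p = 0.62), and its 3 probe sets gave 1.09, 1.18 and 1.12.

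At 14 days the gene farthest from both saline and the other controls was Pfkfb3, which encodes an enzyme that sets fructose 2,6-bisphosphate, an activator of glycolysis. It was at 8.03 in ethanol, 5.29 in saline and 5.26, 5.06 and 6.09 in the ENU, DMN and DPN controls, so ethanol was 2.74 above saline (SE 1.09, limma adjusted p = 1) and above all controls. A second, dim Pfkfb3 probe set was 0.53 above saline. Cebpd, a transcription factor of the C/EBP family, was at 7.42 in ethanol, 5.57 in saline and at most 6.10 in the other controls, but its second probe set had a ratio to saline of −0.28. Alas1, the first enzyme of haem synthesis, was at 11.81 in ethanol, 10.53 in saline and 9.57 to 10.84 in the other controls. Noct, a clock-controlled gene also called nocturnin, was at 9.33 in ethanol, 8.17 in saline and 7.24 to 8.05 in the other controls. PB was second to ethanol in each of these, at 6.13 for Pfkfb3, 6.61 for Cebpd, 11.28 for Alas1 and 8.88 for Noct.

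Lower in ethanol at 14 days was Gpaa1, a subunit of the GPI transamidase that anchors proteins to membranes. It was at 7.98 in ethanol, 9.57 in saline and 9.22 to 9.89 in the other controls (limma adjusted p = 0.11 and 0.044), but its second probe set was 0.31 above saline. Pacs2, a sorting protein of the endoplasmic reticulum, was at the floor in ethanol and at 6.99 to 7.60 in the controls. Impdh1, of guanine nucleotide synthesis, was at 6.85 in ethanol, 8.74 in saline and 7.42 to 8.88 in the other controls. Acacb, the acetyl-CoA carboxylase that restrains fatty acid oxidation, was at the floor in ethanol, at 6.23 in saline and at 6.31 to 8.14 in the other controls. Egr1, an immediate early transcription factor, was at 6.36 in ethanol, 7.41 in saline and 5.99 in PB, so that PB lay below ethanol.

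All measured NRF2 target genes but 1 lay below saline at 14 days: 20 of 21 were below, none was above, and 11 were below all 4 controls. Their median was −0.26 against saline and −0.14 against the other controls, while over all genes 50.8% were below saline and 15.6% below all 4 controls. Osgin1 (−1.39) passed 2-fold on both comparisons. Gclc, the catalytic subunit of glutathione synthesis, had −0.72 against saline and −0.84 against the others on its brightest probe set, and −0.28 and 0.14 on a second one. At 4 h and 28 days 12 and 14 of the 21 were above saline. Other lists were also below saline at 14 days: 11 of 13 hepatocyte markers (8 of them below all 4 controls, median to saline −0.18), 12 of 13 NAD and redox shuttle genes, 16 of 17 methionine and one-carbon genes and 12 of 14 alcohol and acetaldehyde oxidation genes. Their part in the NRF2 values was not tested.

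**Figure D3:**
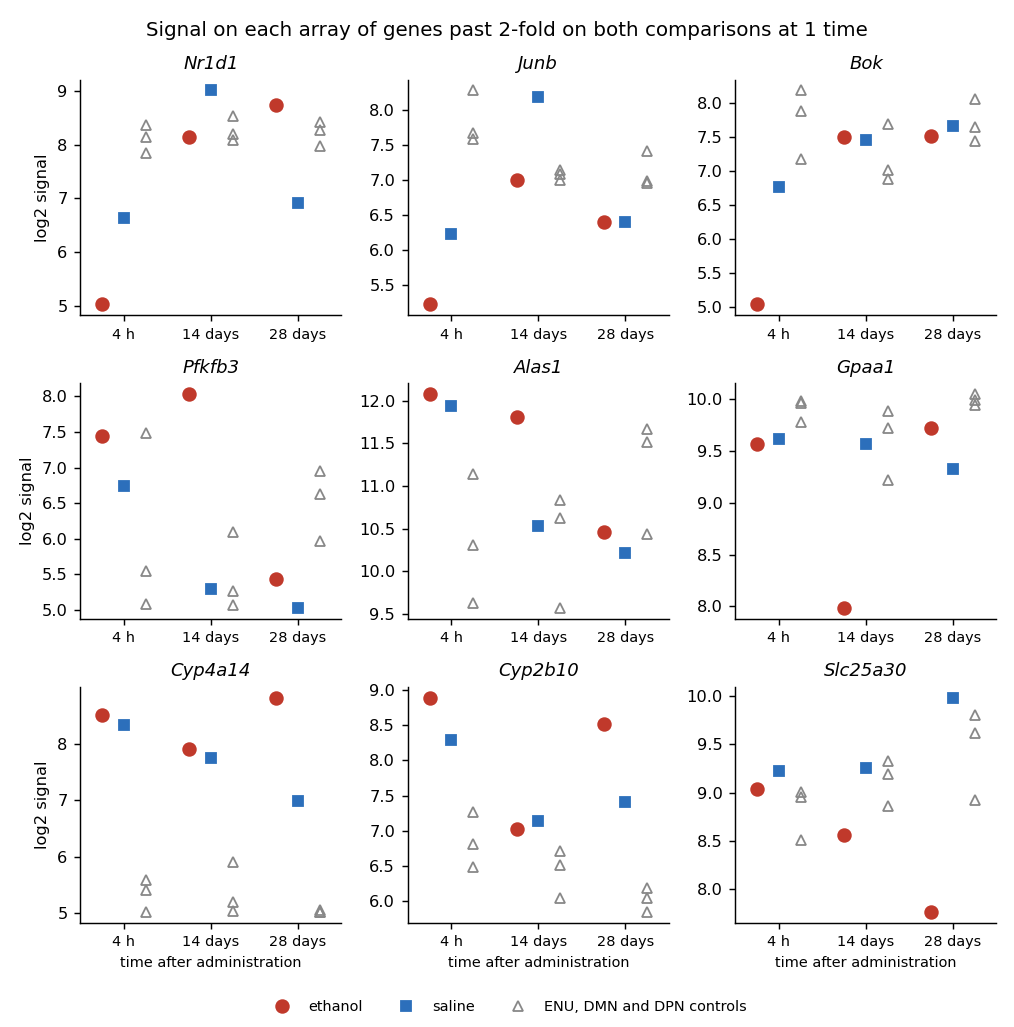
Log2 signal of 9 genes that passed 2-fold on both comparisons at 1 time, on the ethanol, saline and ENU, DMN and DPN control arrays of 4 h, 14 days and 28 days (1 array per point). Nr1d1, Junb and Bok are lowest in ethanol at 4 h, Pfkfb3 and Alas1 highest and Gpaa1 lowest at 14 days, and at 28 days Cyp4a14 and Cyp2b10 are highest and Slc25a30 is lowest.

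Genes of cholesterol synthesis and uptake, most of which the transcription factor SREBP-2 drives together when sterols are low, had the highest list median at 28 days. All 19 measured of 25 were above saline, 18 were above the mean of the other controls and 9 exceeded all 4. None was below saline and 1 below the other controls, where 35.2% and 49.7% of all genes were. The median log2 ratio was 0.86 to saline and 0.65 to the other controls, and over all genes it was 0.07 and 0.00. One of the controls was as high as ethanol, however. The mean level of the 19 genes was 9.68 in ethanol and 9.68 in the DMN control, against 8.73 in saline, 8.69 in the ENU control, 8.88 in the DPN control and 8.75 in PB. Without the DMN control the median to the remaining controls was 0.96. The lowest limma adjusted p of a member against saline was 0.38.

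Dhcr7, which makes cholesterol from 7-dehydrocholesterol, was at 10.19 in ethanol at 28 days, 8.71 in saline and 8.25, 9.59 and 8.62 in the ENU, DMN and DPN controls. Msmo1, the sterol C4-methyl oxidase, was at 11.43 in ethanol, 10.04 in saline and 9.71, 10.68 and 10.08 in those controls. These 2 members passed 2-fold on both comparisons (ratios to saline of 1.48 for Dhcr7 and 1.39 for Msmo1, SE 0.71 and 0.70). Idi1, isopentenyl diphosphate isomerase, was at 10.36 in ethanol and 8.83 in saline, with 10.40 in the DMN control, and Hmgcs1, the cytosolic HMG-CoA synthase, was at 11.57 in ethanol and 10.09 in saline, with 11.78 in the DMN control. Sqle, squalene epoxidase, had a ratio to saline of 1.42, Cyp51 (lanosterol demethylase) 1.45 and Fdps (farnesyl diphosphate synthase) 1.38. Srebf2, the gene of SREBP-2 itself, was above all 4 controls, at 7.97 in ethanol against 7.40 in saline and 7.21 to 7.31 in the others (SE of the ratio to saline 0.16, limma adjusted p = 0.38).

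At 14 days the same list stood the other way. Of the 19, 2 were above and 16 below saline, 8 were below all 4 controls, and the medians were −0.33 to saline and −0.30 to the other controls. Over all genes 50.8% were below saline and 15.6% below all 4 controls, while 14 of the 19 and 46.3% of all genes were below the mean of the other controls. Hmgcs1 was at 8.82 in ethanol, 9.94 in saline and 9.31, 10.60 and 9.82 in the ENU, DMN and DPN controls, and passed 2-fold on both comparisons. At 4 h, 11 were above and 7 below saline with a median of 0.07. The 4 controls differed among themselves by a standard deviation of 0.24, 0.36 and 0.46 in the mean level of the list at the 3 times, and the DMN control was the highest control at each. The change from 14 to 28 days was not tested.

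**Figure D4:**
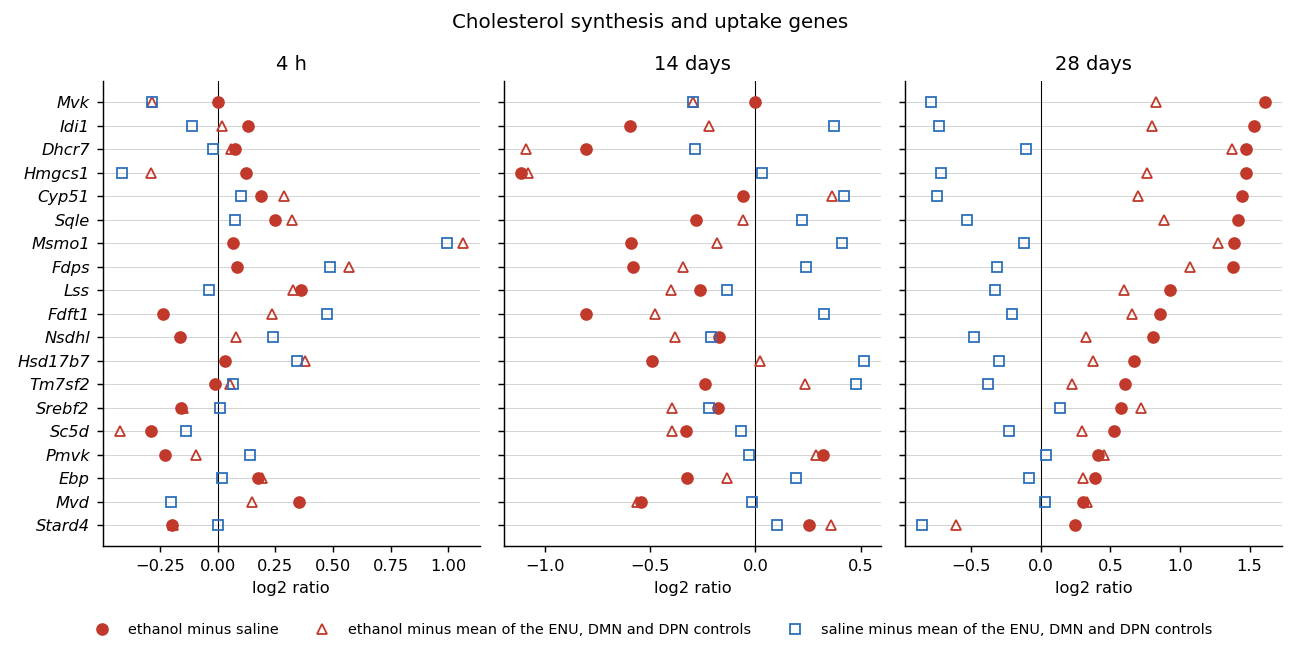
Log2 ratio of each of the 19 measured cholesterol synthesis and uptake genes at 4 h, 14 days and 28 days, for ethanol against saline, ethanol against the mean of the ENU, DMN and DPN controls, and saline against that mean. At 28 days all 19 ethanol minus saline points are above 0 (median 0.86), and at 14 days 16 are below 0 (median −0.33).

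The promoters of these genes are shown because all 19 were above saline at 28 days, although the list itself was not tested. Of the 19, 15 had a promoter window of 250 bases before the RefSeq transcription start (GRCm38.p6). The pentamer CCAAT, the box that the factor NF-Y binds next to SREBP sites, was searched on both strands, and so was CACCCCAC, a sterol response element core. A gene was counted where any of its windows held the letters. By this rule CCAAT was in 15 of 15 genes and in 37.5% of 27025 genes with a window. Those 27025 genes were not limited to the genes measured here. Dhcr7 and Pmvk also had windows without CCAAT, and over all 32851 windows 33.8% held it. CACCCCAC was in 1 of the 15 (Hmgcs1) and in 2.98% of all. Of 18 fasting and glucocorticoid genes with a window, 13 (72.2%) held CCAAT. A match of letters is not a binding site. The windows of Msmo1 (ratio to saline at 28 days 1.39), Idi1 (1.53) and Hmgcs1 (1.48) follow, 5′ to 3′ on the strand of the gene, with CCAAT and its complement ATTGG in capitals.
Msmo1, chr8:64733579-64733828, minus strand: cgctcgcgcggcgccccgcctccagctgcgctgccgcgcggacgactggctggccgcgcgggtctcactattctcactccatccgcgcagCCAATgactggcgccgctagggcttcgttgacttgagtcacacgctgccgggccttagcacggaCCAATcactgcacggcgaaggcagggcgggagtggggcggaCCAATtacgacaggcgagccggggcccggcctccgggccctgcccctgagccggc
Idi1, chr13:8885356-8885605, plus strand: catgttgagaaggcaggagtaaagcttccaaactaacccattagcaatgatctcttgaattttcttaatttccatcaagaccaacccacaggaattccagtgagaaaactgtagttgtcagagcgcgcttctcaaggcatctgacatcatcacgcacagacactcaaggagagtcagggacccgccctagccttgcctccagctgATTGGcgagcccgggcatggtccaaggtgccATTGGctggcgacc
Hmgcs1, chr13:119690101-119690350, plus strand: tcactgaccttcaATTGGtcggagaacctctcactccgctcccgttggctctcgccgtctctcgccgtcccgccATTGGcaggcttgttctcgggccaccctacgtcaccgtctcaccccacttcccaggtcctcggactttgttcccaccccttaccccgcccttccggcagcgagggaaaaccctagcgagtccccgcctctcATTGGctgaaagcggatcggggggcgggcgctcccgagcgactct
The Msmo1 window held 3 CCAAT boxes, the Idi1 window 2 and the Hmgcs1 window 3, with the nearest at 55, 14 and 45 bases before the start. CACCCCAC in Hmgcs1 began 136 bases before the start.

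Other genes higher in ethanol at 28 days were Fgl1, a secreted protein of hepatocytes, at 11.15 in ethanol and 9.66 in saline, but 11.13 in the DMN control. Epas1 (HIF-2 alpha, a hypoxia factor) was at 7.19 in ethanol, 5.90 in saline and 5.44 to 6.17 in the other controls, clear of all 4. Tfrc, the transferrin receptor of iron uptake, was at 9.73 in ethanol, 8.46 in saline and 8.08 to 8.76 in the other controls, and was above all 4 controls at 4 h and 14 days too. Igfbp1, an insulin-like growth factor binding protein that fasting raises, was at 10.57 in ethanol and 9.51 in saline, with 8.08, 10.46 and 7.91 in the ENU, DMN and DPN controls. Mcm2, a subunit of the replicative helicase, was at 6.50 in ethanol and 5.34 in saline, while the 30 measured replication and mitosis genes had a median ratio of 0.00. For Fgl1 and Igfbp1 the DMN control was nearly as high as ethanol.

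Slc25a30, a mitochondrial carrier, was lowest in ethanol at 28 days, at 7.77, against 9.98 in saline and 9.80, 9.62 and 8.93 in the ENU, DMN and DPN controls. Its ratio to saline was −2.21 (limma adjusted p = 0.16), and 4 of its 5 probe sets had ratios of −1.63 to −2.23, the fifth being dim. Socs2, the feedback inhibitor of growth hormone signalling, was at 5.79 in ethanol, 7.30 in saline and 6.29 to 7.34 in the other controls, and its second probe set gave −1.52 against saline. Commd1, a regulator of copper export, was at 7.41 in ethanol, 8.89 in saline and 8.60 to 9.42 in the other controls, but its second probe set was 0.23 above saline. Plk3, a stress kinase, was at the floor in ethanol, at 6.77 in saline and at 5.80 to 7.37 in the other controls.

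**Figure D5:**
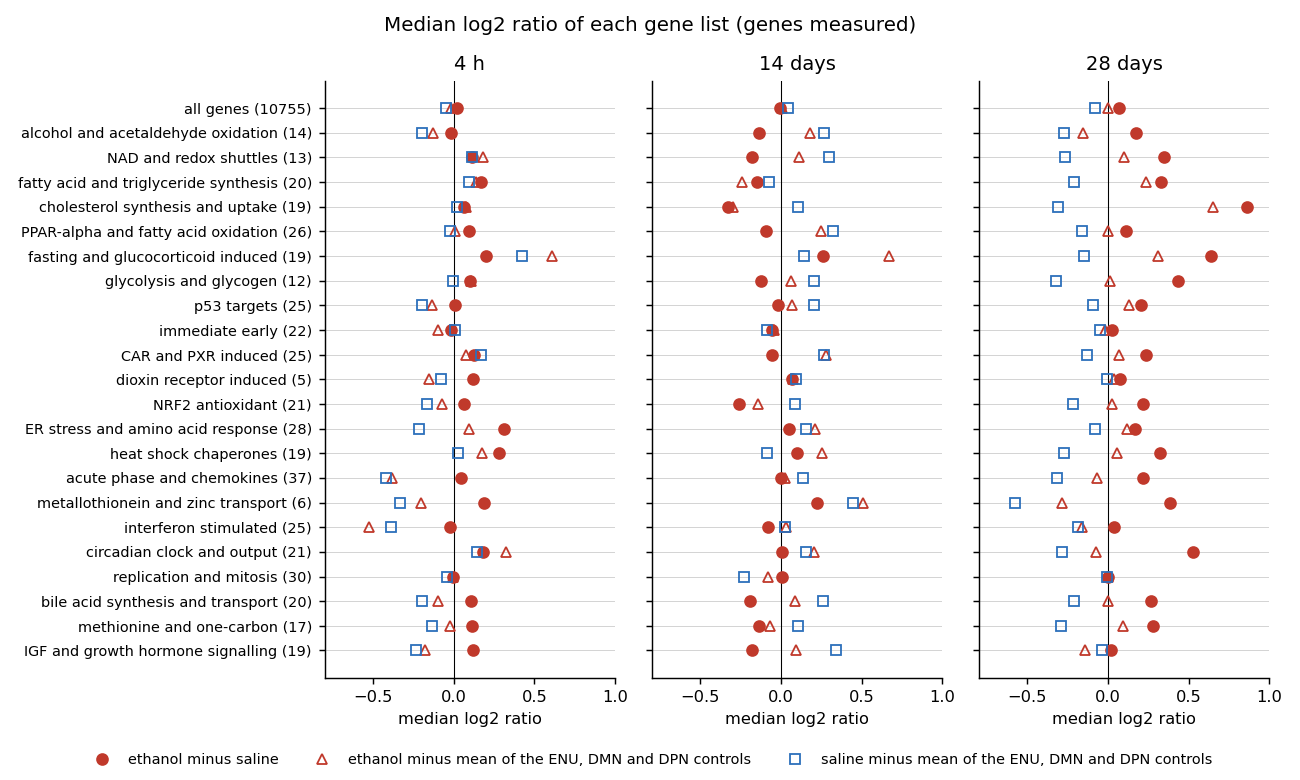
Median log2 ratio of 22 gene lists and of all 10755 genes at 4 h, 14 days and 28 days (number of genes measured in parentheses), for ethanol against saline, ethanol against the mean of the ENU, DMN and DPN controls, and saline against that mean. The cholesterol list at 28 days (0.86 and 0.65) and the fasting and glucocorticoid list (0.20, 0.26 and 0.64 to saline, the first being −0.13 without scaling) lie to the right on both ethanol comparisons.

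In the remaining lists the 2 comparisons often disagreed. At 28 days all 17 measured methionine and one-carbon genes were above saline (56.9% of all genes were), with a median of 0.28, but 10 were above and 7 below the other controls (median 0.09), and the median of saline against those controls was −0.29. At 14 days 16 of the 17 were below saline (50.8% of all genes were), with a median of −0.14. In the fatty acid and triglyceride synthesis list the 2 comparisons went the same way at each time. Its median ratio was 0.17, −0.15 and 0.33 to saline, and 0.14, −0.24 and 0.23 to the other controls. Of 20 measured, 9 were below and 2 above all 4 controls at 14 days (15.6% and 17.5% of all genes). At 28 days 10 were above and 0 below all 4 (20.9% and 14.3% of all genes). The cholesterol list was likewise lower at 14 days and higher at 28 days. Of 25 measured p53 targets, which respond to DNA damage, none passed 2-fold on both comparisons at any time. That is near the share of all genes, of which 0.186% to 0.344% were higher and 0.223% to 0.298% lower. The p53 targets had medians to saline of 0.01, −0.02 and 0.20. Cdkn1a (p21), a p53 target that stress also induces, was 1.24 above saline and 0.26 above the other controls at 4 h, 0.77 and 0.53 above them at 14 days and 0.71 and 1.33 above them at 28 days. Of 46 measured genes that the study names as markers of hepatocarcinogens, none passed at 4 h, Ddit4 and Tubb2a passed at 14 days (Ddit4 higher, Tubb2a lower) and Ddit4 and Igfbp1 at 28 days. Over all genes 0.186%, 0.186% and 0.344% were higher and 0.288%, 0.223% and 0.298% lower at the 3 times. Those markers were chosen in part on this series, so they are not independent of it.

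limma tested the ethanol difference from saline at 4 h minus the mean of the 14 and 28 day differences. It called 60 probe sets (39 higher, 0.213%; 21 lower, 0.114%), of which 59 had a floor value, and over the probe sets above the floor it called 0 (216 at an unadjusted p under 0.05). For the mean of the 3 times it called 79 (40 higher, 0.218%; 39 lower, 0.213%), of which 74 had a floor value. Over the probe sets above the floor it called 3 for the mean (407 at an unadjusted p under 0.05), the 2 Lpin1 probe sets higher and the brightest Id2 probe set lower. Called there at 28 days were the same 2 Lpin1 probe sets and 1 of Mknk2, a kinase of the translation factor eIF4E. This Mknk2 probe set had a ratio to saline of 2.65. It was not the brightest of the gene, and the brightest was not called there. Saline against the ENU, DMN and DPN controls, with no ethanol in it, gave 39 called probe sets at 4 h (36 higher, 0.196%; 3 lower, 0.0163%), 79 at 14 days (71 higher, 0.387%; 8 lower, 0.0436%) and 58 at 28 days (44 higher, 0.24%; 14 lower, 0.0763%). The comparison of the same form is ethanol against those controls, with the counts given above. Ethanol against saline sets 1 array against 1 of its own set, so its counts are not like these.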

How the data were processed

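The members and the gene lists were chosen with earlier results of these data known. RNA pooled from 5 mice was measured on 1 Affymetrix array per group. The authors deposited a table of signal intensity values for 22690 probe sets on 52 arrays, neither log-transformed nor scaled to a common median. No source used here names the software behind the intensities, and the study's text names another array design than the platform annotation does. After removal of 64 control probe sets, each array was scaled to the mean array median (76.6), values below the 30th percentile of all signals (32.5) were set to it, log2 was taken, and 18349 probe sets above the floor on at least 4 arrays were kept. Of 22626 probe sets, 20380 had 1 gene symbol, 691 several and 1555 none. A gene was read from its brightest probe set (10755 genes). limma 3.58.1 (R 4.3.3) fitted 15 arrays in 9 groups with a variance trend. The spread came from the ENU, DMN and DPN controls (6 residual degrees of freedom), so the lone ethanol and saline arrays are assumed to vary like these, and p-values were adjusted by Benjamini and Hochberg over all kept probe sets. The fit was tried on simulated data for probe sets above the floor on all 15 arrays. That trial did not cover values at the floor, which most probe sets called against saline had. Named genes passed 2-fold on both comparisons, passed limma, or led a list, and the further ones named were picked after their values were seen. The number of arrays limits the precision. Other scalings, floors, filters, fold limits, fits and left-out controls were tried.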

Additional observations from a re-analysis of the deposited data

Results flagged for a closer look

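The ethanol difference from saline at 4 h differed from the mean of the 14 and 28 day differences for 60 probe sets (limma, adjusted p under 0.05), of which 59 had a value at the floor. Cblc, a ubiquitin ligase of the CBL family, was at 8.84 in ethanol and 7.76 in saline at 4 h, with 8.33 to 8.44 in the other controls, so the saline array was the lowest. Its 4 h ratio was 1.41 above that of the later times (limma adjusted p = 0.012, and 0.89 over the probe sets above the floor). A second Cblc probe set had ratios to saline of −0.62 at 4 h, −0.22 at 14 days and 0.01 at 28 days. For Ltc4s the 4 h ratio differed from the later ones by −2.13 (limma adjusted p = 0.041), with the ethanol array of 4 h at the floor.

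The ethanol array of 20 h, left out of the main comparisons, had log2 ratios of 3′ over 5′ signal of 3.79 for actin and 3.13 for Gapdh, above all other arrays. It was at least 2-fold from the saline array of 20 h for 2812 probe sets (15.3%), while pairs of controls at 20 h were 457 to 703 apart.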

How the results depend on the processing

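Counts are given for ethanol against saline at 4 h, 14 days and 28 days, then for ethanol against the ENU, DMN and DPN controls at those times, then for saline against those controls (all times), the mean of the 3 times and the 4 h difference from the later times. The limma counts above were 48, 76 and 70, then 76, 73 and 59, then 176, 79 and 60, and 89, 87 and 122 probe sets passed 2-fold on both comparisons. Values as deposited gave 0, 0 and 1, then 3, 0 and 5, then 13, 0 and 0, with 547 past 2-fold at 28 days, where the median of all genes was 0.46 above saline and 0.48 above the other controls. A floor at the 10th percentile gave 5, 7 and 1, then 20, 25 and 4, then 12, 0 and 0, with 631, 580 and 647 past 2-fold. A floor at the 50th percentile gave 105 (4 h) and 162 (28 days), then 203 and 144, then 265, 148 and 121, with 14, 31 and 43 past 2-fold. No filter gave 140, 185 and 203, then 134, 135 and 118, then 391, 371 and 359. Probe sets above the floor on every array, which are fewer, gave 0, 0 and 3, then 16, 5 and 3, then 0, 3 and 0, with 31, 38 and 47 past 2-fold. Without a variance trend there were 13, 19 and 25, then 48, 25 and 30, then 88, 17 and 5. All 4 controls as 1 group gave 25, 28 and 39, with 47 for the mean and 32 for the time difference, and the control set as a block gave 11, 12 and 17, with 5 and 12. Scaling to the 75th percentile gave 27 at 4 h and 44 at 28 days against saline, 28 at 28 days against the other controls, and 50 and 32 for the mean and the time difference. Quantile normalization gave 45 against the other controls at 14 days. A limit of 1.5-fold gave 548, 555 and 729, and of 3-fold 9, 9 and 16. With 20 h added the mean of the times gave 313. The cause was not tested.

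Leaving out 1 control gave 17 to 43, 59 to 92 and 47 to 80 against saline, 50 to 73, 24 to 41 and 33 to 88 against the other controls, 151 to 213 for saline and 5 to 53 for the time difference, with 95 to 104, 82 to 98 and 131 to 158 past 2-fold. The lowest counts against saline at 4 h (17) and for the time difference (5) came without the DPN control, with 24 at 4 h without the DMN control. Against the other controls at 14 days the counts were 24 without DMN, 39 without DPN and 41 without ENU, and at 28 days 33 without DPN. The mean of the times ranged from 34 without the DPN control to 276 without 14 days, with 39 without the DMN control and 164 without 4 h.

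The cholesterol median to saline at 4 h was −0.28 as deposited (0.07 with scaling), where the median of all genes was −0.29, and to the other controls at 28 days 1.18. The fasting and glucocorticoid median to saline was −0.13 at 4 h and 1.03 at 28 days as deposited, 0.11 at 14 days and 0.32 at 28 days with the mean of all probe sets of a gene, and 0.41 at 28 days with quantile normalization, and to the other controls it was 0.83 at 28 days as deposited. Leaving out 1 control gave cholesterol medians of −0.00 to 0.20, −0.41 to 0.00 and 0.40 to 0.96 at the 3 times, and fasting medians of 0.29 to 0.83, 0.59 to 0.75 and 0.26 to 0.45. Of the alternatives, 379 ratios of single genes moved by less than the spread of the controls and 48 by more, and no ratio past 2-fold changed sign. A ratio that shrinks to 0 keeps its sign, so this does not show that the 2-fold genes held. With the floor at the 50th percentile, 1 of 20 higher and 5 of 31 lower genes at 4 h stayed past 2-fold on both comparisons. As deposited, 37 of 37 higher but 11 of 32 lower genes at 28 days did. Quantile normalization kept 19 of 20 and 28 of 31 at 4 h. The labels number no replicates and each group of a time holds 1 array, so the arrays can be paired only by time. The 3 ethanol and saline arrays alone, paired by time (2 residual degrees of freedom, chosen after seeing the data), gave 0 for the mean of the 3 times against 79, with 871 at an unadjusted p under 0.05 and an adjusted p of 0.88 for Id2, Lpin1 and St3gal5.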
